A study of Neurospora crassa with 2 samples.

Results

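Overlapping convergent gene pairs are neighbouring genes that point towards each other and whose models share bases at their 3′ ends. They were taken from a deposited table of 9454 Neurospora crassa genes, sorted by supercontig (an assembled piece of the genome) and start. A pair was kept where the first gene was on the plus strand, the next was on the minus strand, and the first ended at or past the start of the second. This gave 333 pairs with 666 genes among 9446 consecutive pairs, and 1591 further convergent pairs whose models did not overlap. The expression data compare a wild-type strain with a upf1 knockout strain of this filamentous fungus. Both strains were grown for 2 weeks on minimal slants and then for 2 days in medium with 2% glucose under constant light, with no other treatment. Each strain is represented by 1 library of polyadenylated RNA from hyphae, pooled from 3 separately grown flasks. No test between strains could therefore be made, no p-value is given, and the intervals below cover counting error only. The sources used here do not give the allele or the genetic background of the knockout.

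UPF1 is a helicase essential to nonsense-mediated decay, which degrades transcripts whose stop codons lie in unusual contexts, such as ahead of a long 3′ untranslated region. Where convergent genes overlap, the ends of their mRNAs are antisense to each other, and reads from the shared stretch can only be given to one gene if the library and the counting keep strand. In Neurospora, convergent transcription is also known to give rise to small RNAs and to DNA methylation. No sequence of the overlaps was analysed here.

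The shared stretch was short in most pairs. The median overlap was 88 bp, with quartiles of 39 and 157 bp, a minimum of 2 bp and a maximum of 2007 bp. Only 29 pairs overlapped by more than 300 bp. The pairs lay on all 7 large supercontigs, with 91 pairs on supercontig 1, 35 on 2, 42 on 3, 50 on 4, 53 on 5, 27 on 6 and 30 on 7, and the other 5 lay on supercontig 21. Just inside the rule, 18 pairs overlapped by at most 10 bp, and just outside it 24 convergent pairs were separated by at most 10 bp. In these 2 sets, partners' log2 ratios lay a median of 0.52 apart (14 pairs with both partners measured well enough) and 0.70 apart (18 pairs). The quartiles overlapped, at 0.21 and 0.94 in the first set and 0.43 and 0.90 in the second. Ratios lay at least 1 apart in 4 of the 14 pairs and in 3 of the 18, so the 2 measures differ in order.

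The strand labels that define the pairs have an uneven distribution. Of all genes in the table, 7016 (74.2%) were labelled minus and 2438 plus. The minus share was 90.2% in the lowest eighth of genes by wild-type level and 53.0% in the highest, as the plot of strand by level shows. Gene models whose length is a multiple of 3, as a coding sequence without untranslated regions would be, were labelled minus in 83.8% of cases, against 63.6% of the other models. Overlap was also tied to orientation: 333 of 1924 convergent pairs overlapped, but only 8 of 1924 divergent pairs and 111 of 5598 pairs on the same strand. The sources used here do not say how strands were assigned, and the part of these labels in the results below was not tested.

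**Figure D1:**
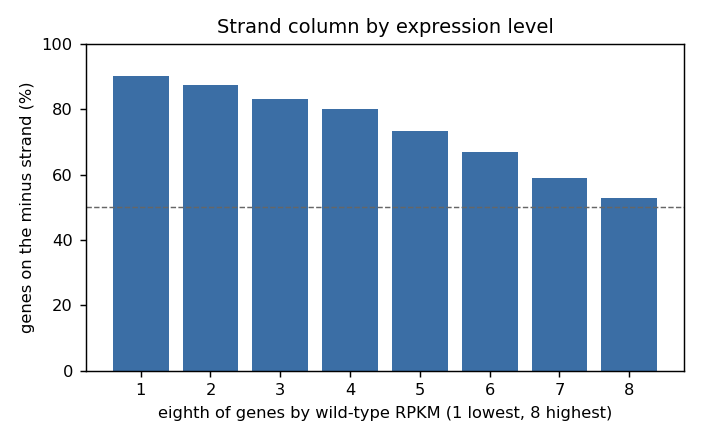
Share of genes labelled minus (percent, bars from 0) in 8 equal groups of genes ordered by wild-type RPKM. The share is 90.2% in the lowest group and 53.0% in the highest, and the dashed line marks equal use of both strands.

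The 5 pairs on supercontig 21 are mitochondrial genes, and in 4 of them the minus model lies wholly inside the plus model. One is NCU_16020 with NCU_16021 (2007 bp shared) and another is NCU_16025 with NCU_16026 (1443 bp). Several of the inner models are described as endonucleases, which fungal mitochondria are known to encode within introns of the host gene and read from the same strand, so the minus label goes against the annotation there. All 10 of these genes had log2 ratios below 0, from -3.64 to -0.12, on few reads (428 knockout and 1481 wild-type reads over all 10). Only 2 of them reached 5 RPKM in a library. NCU_16008 was at 0.227 RPKM in the knockout against 14.3 in wild type, and NCU_16013 was at 0.584 and 9.02. None of the 5 pairs enters the comparisons of partners, which need both genes at that level.

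The table held 56306422 knockout reads and 28189643 wild-type reads. The pairs' genes held 10.3% of the reads in each library. The targeted gene, listed as prd-6 (NCU04242), was at 2.78 RPKM in the knockout against 22.6 in wild type, 8.15-fold lower, and is not in one of the pairs. RPKM divides reads by the model length in kilobases and by the size of the library. Of the 4 hyphal markers matched, hex-1, the core protein of the Woronin body that plugs septal pores, was at 602 RPKM in the knockout against 1908 in wild type. The other 3 were within 2-fold, and the list summed to 696 and 2004 RPKM. Markers of conidia, the asexual spores, summed to 2589 RPKM in the knockout against 16665 in wild type, with 4 of 7 at least 2-fold higher and 3 at least 2-fold lower. The rodlet gene eas carried that sum, at 1619 and 15983 RPKM, and the other 6 summed to 971 and 682. Of 8 matched mating markers, 2 were higher and 1 lower among the 5 that reached 5 RPKM, with sums of 135 and 78.8 RPKM, and matA-1, matA-2 and matA-3 had no read in either library. The marker genes are not in the pairs, and the part of such cells in the results below was not tested. In a bulk library, fewer cells of a type and less RNA per cell cannot be told apart.

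Genes in overlapping convergent pairs had a higher median level than the table as a whole. Their median was 38.7 RPKM in wild type and 46.4 in the knockout, against 15.2 and 17.9 over all genes and 18.8 and 21.8 in convergent pairs that do not overlap. At least 5 RPKM in at least 1 library was reached by 633 of the 666 genes (95%), against 77.9% of all genes, and NCU08765 had no read in either library. Of the pairs' genes 31.8% were described as hypothetical proteins, beside 53.1% of all genes. Their models had a median length of 1483 bp, beside 1629 bp, and 80.0% contained an intron, beside 78.1%. A model length that is a multiple of 3 occurred in 36.0%, beside 51.2%. Other models also have such a length by chance, so these shares do not count models without untranslated regions. A RefSeq symbol was available for 94 of them, and in 10 pairs both partners had one.

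Most of these genes were at similar levels in both strains. The log2 ratio used throughout is log2((knockout RPKM + 1)/(wild-type RPKM + 1)), so values above 0 mean a higher level in the knockout, and it understates the difference of low genes. Among the 633 genes, 88 (13.9%) had levels at least 2-fold higher in the knockout and 27 (4.27%) at least 2-fold lower. Over all 7367 genes above the same level, 16.5% were higher and 5.52% lower, so neither share of the pairs' genes exceeded that background. Of the calls past 2-fold, 76.5% were higher with the deposited scaling, 62.8% with TMM scaling, 65.3% after centring on the median gene and 57.3% after centring within classes of model length. The median log2 ratio was 0.24 (quartiles -0.21 and 0.70), against 0.15 over all genes and 0.11 in non-overlapping convergent pairs. TMM scaling moved the median of all genes to -0.020 and that of the pairs' genes to 0.066, and centring by length moved the latter to -0.016. Short models had higher ratios in the whole table, with medians of 0.56 in the shortest eighth and -0.11 in the longest. The plus-strand partners had 42 genes higher and 19 lower of 320, and the minus-strand partners 46 higher and 8 lower of 313.

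Genes past 2-fold are illustrated by 5 with symbols that were chosen after their values were seen. The gene ilv-2, whose ketol-acid reductoisomerase acts in the synthesis of branched-chain amino acids, was at 235 RPKM in the knockout against 639 in wild type, 2.71-fold lower. Its partner NCU03607 had a log2 ratio of 0.071. The gene ace-8, annotated as pyruvate kinase of glycolysis, was at 302 and 784 RPKM, 2.59-fold lower, and its partner NCU06074 had a log2 ratio of 0.35. The gene arg-3, for the large subunit of a carbamoyl-phosphate synthase, was at 43.9 and 90.1 RPKM, and its partner NCU02678 had a log2 ratio of 0.070. NCU06074 was at 2.27 and 1.58 RPKM, below the level needed for a call, and the partners of ilv-2 and arg-3 were within 2-fold. Among higher genes was gh28-1, a polygalacturonase that cuts pectin, at 100.2 RPKM in the knockout against 16.4 in wild type, 6.10-fold higher, beside a partner, NCU02368, with a log2 ratio of 0.41. The gene egt-1, known for ergothioneine synthesis, was at 539.9 and 216 RPKM, 2.50-fold higher, while its partner NCU04344 had a log2 ratio of -0.70.

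Partners in overlapping pairs mostly differed about as much as other neighbours. In 304 pairs both genes reached 5 RPKM in a library. The difference of their log2 ratios had a median size of 0.55, against 0.64 in 1065 convergent pairs that do not overlap, 0.61 in the 480 of these with gaps of at most 500 bp, 0.59 in 1468 divergent pairs and 0.63 in 3151 pairs on the same strand. Log2 ratios lay at least 1 apart in 76 overlapping pairs (25%), in 129 of the closely spaced convergent pairs (26.9%) and in 343 of all convergent pairs apart (32.2%), with a background of 30.9% over all consecutive pairs. Pearson's r between partners was 0.18 and Spearman's coefficient 0.14 over the 304 overlapping pairs, 0.12 and 0.11 over the 1065 pairs apart, and 0.18 and 0.15 over the 480 closely spaced ones. All pairs share both libraries and their depth, so these coefficients only describe the 2 libraries. The sign of the difference did not favour a strand, with a median of 0.022 for the plus-strand partner minus the minus-strand partner.

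**Figure D2:**
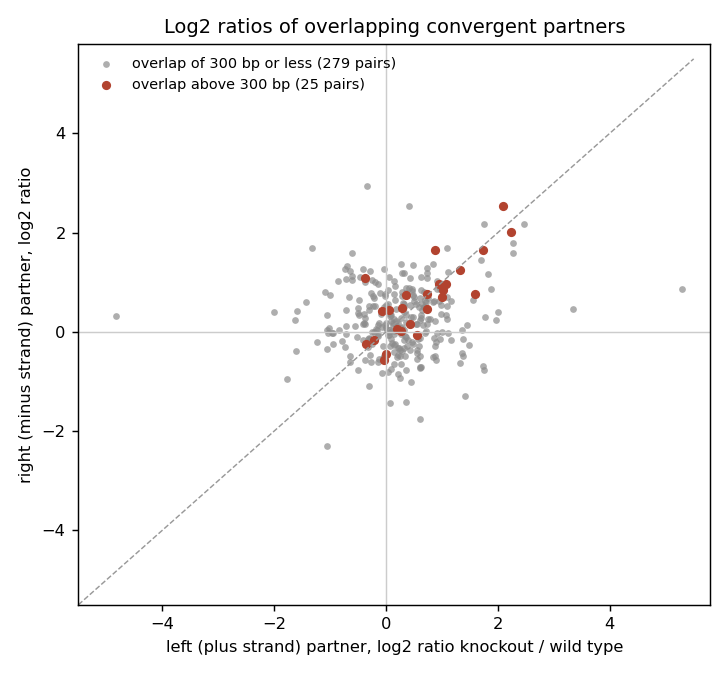
Log2 ratio of the minus-strand partner against that of the plus-strand partner in overlapping convergent pairs where both reached 5 RPKM. Overlaps of 300 bp or less (279 pairs) and above 300 bp (25 pairs) are marked apart. Pearson's r is 0.18 over all 304 pairs and 0.80 over the 25.

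Calls on both partners were few. Both genes were at least 2-fold higher in 12 of the 304 pairs (3.95%), against a background of 4.44% of 6084 consecutive pairs. Both were lower in 1 pair (0.329%, background 0.937%), the partners went opposite ways past 2-fold in 2 pairs (0.658%, background 1.23%), and 1 partner alone was past 2-fold in 79 pairs (26%, background 28.2%). In 210 pairs neither gene was. Of 85 genes at least 2-fold higher with a measured partner, 24 (28.2%) had a partner that was also higher, beside 28.3% over all consecutive pairs. Of 24 genes at least 2-fold lower, 2 (8.33%) had a lower partner and 2 (8.33%) a higher one, beside 18.6% and 12.2% over all consecutive pairs.

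Partners with long overlaps had closer ratios in these libraries, a difference that could not be tested. Above 300 bp, in 25 pairs, the difference of log2 ratios had a median of 0.26 and r was 0.80. It was 0.52 with an r of 0.16 in 116 pairs sharing more than 100 and up to 300 bp, and 0.70 with an r of 0.086 in 163 pairs sharing up to 100 bp. Without the 2 pairs farthest from the median, r was 0.67 above 300 bp. Ratios lay at least 1 apart in only 1 of the 25 pairs (4%), in 28 of the 116 (24.1%) and in 47 of the 163 (28.8%). The partners' levels also ran together in the long overlaps: Spearman's coefficient between their wild-type RPKM was 0.52 above 300 bp, 0.19 between 100 and 300 bp, 0.078 at up to 100 bp and 0.084 in the pairs apart. Of 50 genes in the 25 pairs, 13 (26%) were at least 2-fold higher and none was lower, beside 16.5% and 5.52% of all genes. Some of the 13, such as NCU09691 and NCU09690, passed the 5 RPKM filter only through the knockout, which favours a higher call. The count of 13 also holds for the deposited scaling only. With TMM scaling NCU12011 and NCU01419 fell below 2-fold, at log2 ratios of 0.88 and 0.84, and 12.8% of all genes were higher. The median log2 ratio of the 50 genes was 0.63, and 8 of the 13 had a partner that was also higher. The 4 overlaps above 1000 bp are mitochondrial and had no pair measured well enough. In them 2 genes reached 5 RPKM, both only in the wild-type library, and both were at least 2-fold lower. Passing the filter only in the wild type favours a lower call, so these 2 calls are no result about long overlaps.

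**Figure D3:**
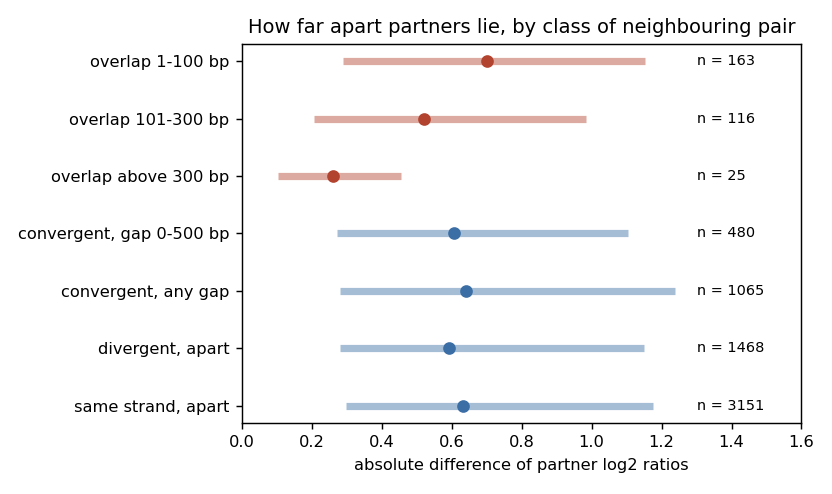
Median (point) and quartiles (bar) of the absolute difference of partners' log2 ratios, for overlapping convergent pairs by overlap length and for other neighbours. The median is 0.26 over 25 pairs sharing more than 300 bp and between 0.52 and 0.70 in the other classes.

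The longer the shared stretch, the more reads could belong to either gene. Spread evenly, the reads of the stronger partner would put into the overlap a number equal to a median of 7.85% of the weaker partner's wild-type reads at up to 100 bp, 26.7% between 100 and 300 bp and 83.2% above 300 bp. In the knockout these medians were 7.11%, 23.4% and 64.1%. The sources used here do not say whether the counting used strand, and the part of shared reads in the closer ratios was not tested. The length behind RPKM equalled the genomic span in 123 of the 666 genes and the span less the overlap in 4, within 1 bp. For most genes, whose models contain introns, the table does not show whether the overlap was part of that length. Pairs on the same strand that overlap, of which 90 could be compared, had a median difference of 0.41 and an r of 0.59.

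The longest overlap with both genes measured joined NCU02162, a SURF-family protein, to cen-T on supercontig 1. The models ran from 1042474 to 1044463 and from 1043595 to 1045998, and shared 869 bp. NCU02162 was at 77.2 RPKM in the knockout against 38.2 in wild type, and cen-T was at 37.0 and 22.4. Both were higher in the knockout library, by log2 ratios of 0.997 and 0.70. NCU01785 and NCU11926, hypothetical proteins on supercontig 2, shared 818 bp. NCU01785 was at 238 RPKM in the knockout against 49.6 in wild type, 4.80-fold higher (95% interval 4.59 to 5.03). NCU11926 was at 200.5 and 49.2 RPKM, 4.08-fold higher (3.83 to 4.34). The partners were nearly equal in the wild type and differed by a log2 ratio of 0.24 between strains.

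Neighbouring long overlaps on supercontig 4 had different ratios. The ankyrin repeat gene NCU04409 and NCU04408 shared 754 bp. NCU04409 was at 126 RPKM in the knockout against 37.4 in wild type, and NCU04408 was at 103 and 32.1, 3.37-fold and 3.21-fold higher. The next pair downstream, the RNA methylase gene NCU04407 and NCU04406, which encodes a Vid24 protein, shared 774 bp. NCU04407 was at 33.7 and 33.5 RPKM, and NCU04406 at 46.9 and 64.4. In 2 further long overlaps both partners were near their wild-type level. NCU11197, a subunit of RNA polymerase III, and NCU00966 (786 bp) had log2 ratios of 0.27 and 0.023. NCU12015 and NCU06149, which encodes the helicase dhh-1, whose yeast counterpart promotes mRNA decapping (731 bp), had log2 ratios of -0.21 and -0.16. Chosen after their values were seen, stt4 and NCU09368 (729 bp) had log2 ratios of 0.16 and 0.43, and ngf-1, the GCN5 histone acetyltransferase, and NCU11519 (487 bp) had 0.75 and 0.73. The only pair above 300 bp with ratios at least 1 apart was NCU06790 with NCU06789 (375 bp), both hypothetical. NCU06790 was at 43.5 RPKM in the knockout against 56.7 in wild type, while NCU06789 was at 29.4 and 13.3.

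The 6 widest differences between partners lay in pairs sharing 22 to 119 bp, where 279 of the 304 compared pairs shared 300 bp or less. The gene adh-1 encodes an alcohol dehydrogenase, which interconverts ethanol and acetaldehyde, and its model ran from 2540264 to 2541938 on supercontig 2. It was at 23.4 RPKM in the knockout against 688 in wild type, 29.4-fold lower (28.5 to 30.4). Its partner NCU01753, a gamma-glutamyltranspeptidase of glutathione breakdown, ran from 2541879 to 2544442, shared 60 bp, and was at 16.9 and 13.4 RPKM, 1.26-fold higher (1.17 to 1.36). The ratios lay -5.14 apart, the widest gap among the 304 pairs. Even coverage of adh-1 would put into the overlap reads equal to 123% of all wild-type reads of NCU01753 and 3.31% of its knockout reads. The length behind the RPKM of adh-1 is 2733 bp, above its span of 1675 bp, and it is 1 of 8 pair genes with a length above the span. With the span these shares would be 201% and 5.4%. The part of such reads was not tested.

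NCU08351 was the pair gene with the highest ratio. It encodes a hypothetical protein on supercontig 1 and was at 717 RPKM in the knockout against 17.3 in wild type, 41.5-fold higher (36.9 to 46.8). Its partner NCU08350, which shares 27 bp, was at 27.6 and 14.7 RPKM, 1.87-fold higher (1.69 to 2.08). Even coverage of NCU08351 would account for 65.2% of the knockout reads of NCU08350 and 2.95% of its wild-type reads, and the part of such reads in its ratio was not tested. NCU09630 was at 27.8 RPKM in the knockout against 1.84 in wild type, 15.2-fold higher (11.0 to 21.4) on 39 wild-type reads, while its partner NCU09629 (89 bp shared) was at 25.9 and 18.4.

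Electron transfer genes of mitochondria formed another such pair on supercontig 4. NCU08005, for the adrenodoxin reductase Arh1, whose yeast counterpart feeds electrons to iron-sulfur cluster synthesis, was at 137 RPKM in the knockout against 17.1 in wild type, 8.01-fold higher (7.49 to 8.58). Its partner NCU08004, for the alpha subunit of the electron transfer flavoprotein, shared 119 bp and was at 44.6 and 56.7 RPKM, with a log2 ratio of -0.34. The weaker gene of the wild type was thus the stronger one of the knockout. Such an exchange occurred in 48 of the 304 pairs (15.8%), against a background of 15.9% of consecutive pairs, and in 25 of the 48 the log2 ratios lay at least 1 apart.

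Both pairs with partners past 2-fold in opposite directions held a tRNA synthetase, an enzyme that charges tRNA with its amino acid. NCU03575, the isoleucyl-tRNA synthetase gene, was at 39.6 RPKM in the knockout against 101.1 in wild type, 2.55-fold lower (2.48 to 2.63). Its partner NCU03574, which shares 80 bp, was at 39.8 and 11.7 RPKM, 3.4-fold higher (2.82 to 4.11). Here even coverage of NCU03575 would put 182% of the partner's wild-type reads into the overlap. In the knockout NCU03574 was slightly the stronger gene, and its even coverage would equal 2.33% of the reads of NCU03575. NCU04449, the prolyl-tRNA synthetase gene, was at 7.87 RPKM in the knockout against 20.6 in wild type, 2.62-fold lower (2.41 to 2.85). Its partner NCU04450 shared 22 bp and was at 28.6 and 10.1 RPKM, 2.83-fold higher (2.61 to 3.07). The 6 genes of the pairs described as tRNA synthetases, a group formed after the values were seen, had 3 lower and 1 higher and a median log2 ratio of -0.66. All 39 in the table had 9 lower and 8 higher and a median of -0.055.

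**Figure D4:**
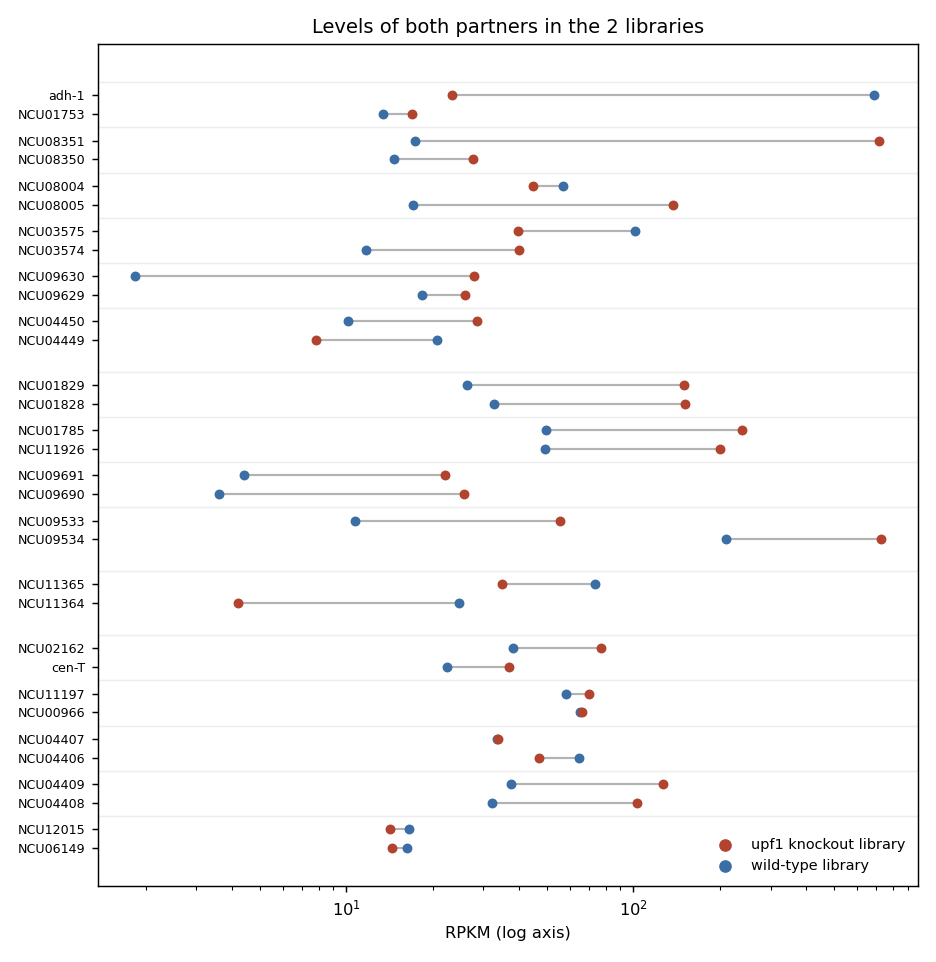
RPKM (log scale) of both partners in the wild-type and knockout libraries for named overlapping pairs, 1 library per strain, so no error bars are drawn. The adh-1 points lie at 688 and 23.4 RPKM and those of NCU01753 at 13.4 and 16.9, and NCU01785 and NCU11926 go from 49.6 and 49.2 RPKM to 238 and 200.5.

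The 12 pairs with both partners higher ranged from 7 to 818 bp of overlap. NCU09533, an oxidoreductase gene, and NCU09534, which encodes the peroxiredoxin HYR1, a peroxide-reducing enzyme, shared 7 bp on supercontig 5, from 4498780 to 4498786. NCU09533 was at 55.5 RPKM in the knockout against 10.7 in wild type, 5.18-fold higher (4.70 to 5.73), and NCU09534 was at 728 and 209.7, 3.47-fold higher (3.38 to 3.57). The next overlapping pair on that supercontig, NCU09535 and NCU09536 (47 bp), was also higher on both sides, at 93.8 and 27.2 RPKM for the first gene and at 228 and 49.7 for the second. These 4 models lay between 4497262 and 4505946. Even coverage of the stronger gene would account for less than 10% of the weaker gene's reads in both pairs.

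NCU01829 and NCU01828, hypothetical proteins sharing 30 bp, had the highest ratios of the 12 by the lower log2 ratio of the pair (2.17), with 149.8 and 26.2 RPKM for NCU01829 and 151 and 32.8 for NCU01828. NCU09691 and NCU09690 (420 bp) were low in the wild type, at 4.40 and 3.62 RPKM, and at 22.0 and 25.8 in the knockout. Genes with a symbol were in 2 more of the 12 pairs. The gene cys-3, for the activator of sulfur acquisition genes, was at 333 RPKM in the knockout against 155 in wild type, and its partner NCU03535 (164 bp) was at 53.6 and 22.6. The phosphate permease gene pho-4, which is repressed when phosphate is plentiful, was at 157 and 31.7 RPKM, and its partner NCU12035 (154 bp) was at 9.35 and 2.42. Even coverage of pho-4 would put into the overlap 185% of the knockout reads and 144% of the wild-type reads of NCU12035. The part of such reads was not tested. These last 2 pairs, and NCU09535 with NCU09536, were chosen after their values were seen.

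The only pair with both partners lower was NCU11365, an aminotransferase gene, with NCU11364, a ketoreductase gene, on supercontig 4 (114 bp). NCU11365 was at 34.8 RPKM in the knockout against 73.7 in wild type, 2.12-fold lower (2.02 to 2.22). NCU11364 was at 4.21 and 24.8 RPKM, 5.89-fold lower (5.2 to 6.67). With a pseudocount of 5 RPKM the number of such pairs was 0, and without the filter on low levels it was 3. Those added were the mitochondrial pairs NCU_16008 with NCU_16009 and NCU_16013 with NCU_16014, on 10 to 49 knockout reads per gene.

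The pairs of his-6, pgk and arg-12, genes listed in the rule, each had 1 partner past 2-fold. The gene his-6, for the imidazole glycerol phosphate synthase of histidine synthesis, was at 46.0 RPKM in the knockout against 189 in wild type, 4.10-fold lower (3.96 to 4.24). Its partner NCU07155, the ornithine decarboxylase antizyme gene, whose product restrains polyamine synthesis, shared 99 bp and was at 235 and 179 RPKM, 1.31-fold higher (1.28 to 1.34). The gene pgk, for phosphoglycerate kinase of glycolysis, was at 276 and 839 RPKM, 3.03-fold lower (2.99 to 3.08), and its partner NCU07913 (21 bp) was at 199.7 and 149 RPKM. The gene arg-12, whose ornithine carbamoyltransferase makes citrulline, was at 45.2 and 157 RPKM, 3.47-fold lower (3.34 to 3.61). Its partner ilv-4, the small subunit of acetolactate synthase in branched-chain amino acid synthesis, shared 100 bp and was lower as well, at 110.0 and 213 RPKM, 1.94-fold (1.88 to 2.00), just short of the 2-fold limit.

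Among the other 9 pairs with symbols for both partners, 3 had a gene past 2-fold and none had both, and 2 of the 3 are described here. The gene tim14, for a subunit of the mitochondrial import motor, was at 259 RPKM in the knockout against 115 in wild type, 2.25-fold higher (2.17 to 2.33). Its partner qip (39 bp), for the exonuclease that works with the Argonaute QDE-2 in quelling, the small RNA silencing of repeated genes, was at 15.0 and 16.9 RPKM. The gene po, for the P0 protein of the ribosomal stalk, was at 499.7 and 1045 RPKM, 2.09-fold lower (2.06 to 2.12), beside msh1 (2 bp), a MutS homologue, at 4.64 and 6.19.

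In the remaining 6 named pairs all genes were within 2-fold. The proteasome gene pcb-3 and nca-1, a calcium pump gene, had log2 ratios of 0.21 and -0.33. The gene bem46 and pex10, a peroxisomal import gene, had 0.55 and -0.37, and gfa1 and the proteasome gene pcb-7 had -0.52 and -0.11. The proline synthesis gene pro-1 and hat-1, a histone acetyltransferase gene, had 0.32 and 0.027. For the aminotransferase gene ala and the proteasome gene rpn-7 they were -0.94 and -0.24, and for ubi::crp-6 and gh18-5 they were -0.17 and 0.061. In the deposited table, partners of overlapping pairs carried the same description in 13 of 161 pairs where both had one other than hypothetical protein (8.07%), against 17 of 399 (4.26%) in pairs apart. An example is nca-1, described there as its partner, so such genes are named by RefSeq symbol.

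The strongest pairs joined a ribosomal protein or histone gene to a weaker neighbour. NCU06432, for protein S12 of the small ribosomal subunit, was at 2269.6 RPKM in the knockout against 3744 in wild type. Its partner NCU06433, for the prolyl isomerase pin-4, shared 88 bp and was at 125 and 59.1, 2.12-fold higher (1.97 to 2.27). Spread evenly, S12 reads would put into the overlap 277% and 966% of the reads that NCU06433 held in all, the largest such share among the 304 pairs. NCU01552, for ribosomal protein S28, was at 2273 and 2975 RPKM, and its partner NCU01553 (184 bp), for the ubiquinone synthesis enzyme Coq2, was at 106 and 87.1. The histone gene hH2A was at 1929 and 2684 RPKM, and its partner NCU11258 (98 bp), of the LYR family, was at 414 and 327. NCU00475, for ribosomal protein S18, was at 2105 and 2737 RPKM, and its partner NCU00476 (68 bp) was at 74.4 and 61.3. NCU03635, for ribosomal protein L38, was at 2676 and 3683 RPKM, and its partner NCU03634 (108 bp) was at 366 and 445. In 5 of the 6 strongest pairs the stronger gene had a log2 ratio below 0 and the weaker one above 0 with the deposited scaling, against 4 with TMM scaling and 2 after length centring. The stronger gene had the lower ratio of the pair in all 6 under these 3 scalings. These pairs were chosen by wild-type level, which is the denominator of the ratio, and that choice favours low ratios in the stronger gene. No count over other pairs is given beside these. The 122 genes in the whole table described as a ribosomal protein had a median log2 ratio of -0.27. In 38 of the 304 pairs, the weaker gene held fewer reads in at least 1 library than even coverage of the stronger one would put into the overlap.

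Partners' ratios lay somewhat farther apart where their levels did, but the tie was weak. The stronger partner was a median of 2.66-fold above the weaker in the wild type, against 2.94-fold in pairs apart. The difference of log2 ratios had a median of 0.53 in 190 pairs within 4-fold of each other, 0.60 in 95 pairs from 4- to 16-fold and 0.71 in 19 pairs beyond. In convergent pairs apart, the medians of these 3 classes were 0.60, 0.68 and 0.90. Spearman's coefficient between the level gap and the difference was 0.11 over the 304 pairs, and that between overlap length and the difference was -0.20.

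Of 10 matched genes of small RNA production and DNA methylation, 7 reached 5 RPKM in a library, none of these was past 2-fold, and their median log2 ratio was 0.24. The Dicer gene dcl-2, below that level, was at 4.36 RPKM in the knockout against 2.18 in wild type, a read ratio of 2.01 (1.78 to 2.29). The Argonaute gene qde-2 was at 51.4 RPKM in the knockout against 43.4 in wild type, and the DNA methyltransferase gene dim-2 was at 11.9 and 8.73. The other Dicer gene, dcl-1, was at 6.36 and 10.8 RPKM, 1.70-fold lower, and qde-1, for an RNA-dependent RNA polymerase, at 5.13 and 5.86. Only qip of this list is in an overlapping pair. A further 12 genes had product names that refer to mRNA 3′ end formation or to poly(A) RNA, among them an RNA export protein. None of them was higher and 1 was lower, and their median was -0.038. The lower one was NCU08022, described as a poly(A) polymerase, at 14.8 and 31.3 RPKM. None of these 12 is in an overlapping pair.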

How the data were processed

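The deposited table gives the authors' read counts and RPKM values for each gene in both libraries, per the file headers. RPKM values were taken as deposited by the authors, and their totals, recovered from reads and RPKM, are 59645570 reads for the knockout and 29546480 for the wild type. Per the submitters' processing notes, Bowtie 0.12.2 was among the tools. The sources used here do not give the genome build, the counting tool or its use of strand, so values of overlapping genes are uncertain. Coordinates are those of the table.

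Genes entered the comparisons from 5 RPKM in either library, with a pseudocount of 1 RPKM and a limit of 2-fold. Printed folds are ratios of reads over these totals. Their 95% intervals are exact Clopper-Pearson intervals. Because reads carry no molecular identifiers, they are not independent molecules, and intervals cover counting error only. Where no read was counted, up to 3 are allowed, or 0.0503 RPKM (knockout) and 0.102 RPKM (wild type) for a 1 kb model. Median reads per pair gene were 4272.5 and 1823. Reads divided by RPKM gave different model lengths in the libraries for 1 pair gene, NCU00166 (tolerance 0.1%).

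Identifiers were matched to RefSeq locus tags of assembly NC12 for names only, and 8930 of 9454 matched. No column of values was left unassigned. Named pairs were the 6 with the largest partner difference, the 6 longest overlaps, up to 4 with both partners higher and up to 4 with both lower, up to 12 with 2 symbols, the 6 with the highest wild-type level, and pairs with any of 11 listed genes, of which 3 were in pairs. This gave 33 pairs. The values of 1 of them are not reported here. Pairs and lists were chosen with earlier results of these data known. The calculation was tested on simulated data. Python 3.11.15, pandas 2.3.3, scipy 1.17.1 and, for TMM scaling, edgeR 4.0.16 were used. Alternatives were other pseudocounts (0.1 and 5), a filter at 20 RPKM or none, TMM, median and length centring, overlaps of at least 100 bp, gaps of at most 500 bp, and subsets of the pairs.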

Additional observations from a re-analysis of the deposited data

How the results depend on the processing

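Pseudocounts, filters, scalings and the definition of a pair were varied, and 4 subsets were chosen after seeing the data. With a pseudocount of 5 RPKM, the partner difference in pairs apart was 0.55, with 0 pairs both lower and 1 opposite. Without a filter, 3 pairs were both lower, those added being mitochondrial, and with a filter at 20 RPKM the difference in pairs apart was 0.69. The median log2 ratio of the pairs' genes was 0.066 with TMM scaling, 0.087 after median centring and -0.016 after length centring, and each of these gave 2 pairs both lower. Length centring left 55 genes higher and 41 lower. With overlaps of at least 100 bp, 42 genes were higher and 11 lower, the partner difference was 0.48, r was 0.34, and 7 pairs were both higher, 0 opposite and 34 with 1 gene past 2-fold. In the subset chosen after seeing the data where even coverage stayed under 10%, 19 genes were higher and 8 lower, the median was 0.16, and 3 pairs were both higher, 0 both lower, 1 opposite and 19 with 1 gene past 2-fold. In pairs where neither model length is a multiple of 3, also chosen after seeing the data, 25 genes were higher and 12 lower, r was -0.016 in overlapping pairs and 0.26 in pairs apart, where the difference was 0.60, and 3 pairs were both higher, 0 both lower, 1 opposite and 28 with 1 gene past 2-fold. The last 3 settings hold fewer pairs, and 14.4%, 10% and 9.47% of their genes were higher, against 13.9% in all pairs. The cause of the shifts was not tested. The closer ratios above 300 bp kept their direction under the other settings that could give a value. Of 33 named pairs' differences, 4 crossed a log2 difference of 1 in 1 setting each. That of NCU11197 and NCU00966 changed sign after length centring, from 0.25 to -0.12, and that of pcb-3 and nca-1 shrank from 0.54 to 0.099. Without supercontig 21, 25 genes were lower. No paired analysis was possible because each strain has 1 pooled library. That single library per strain limits every value here: the intervals cover counting error, and differences between cultures could not be measured.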
